A study of Arabidopsis thaliana with 12 samples.

Results

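The libraries labelled grf1/grf2/grf3, written grf123 from here on, were set against wild type (WT) across all measured loci. They are the 3 libraries whose titles carry that label and the 3 titled Ws, taken by title alone, so 6 of the 12 libraries of the series. The study asked which genes GRF1 and GRF3 regulate. RNA came from whole plants of Arabidopsis thaliana, strain Ws, after 14 days on MS medium, so shoot and root transcripts are mixed in each library. The grf123 plants carry mutations in GRF1, GRF2 and GRF3 in that strain, and the labels used here name neither the alleles nor their positions. The WT plants are unmodified Ws. The remaining libraries, of plants carrying 35S:GRF1-GFP (GRF1_OE) or 35S:GRF3-GFP (GRF3_OE), appear only where values are set side by side, and the viral 35S promoter that drives those transgenes is active in most tissues. The labels describe complete blocks with 3 replications, without tying library numbers to blocks or separate sowings. The p-values below therefore measure the spread between the libraries as deposited, and that spread may be technical.

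Reads assigned to genes numbered 6339199, 3557137 and 14277574 in the libraries labelled grf123, against 8238541, 6893017 and 2820223 in WT. WT replicate 3, the shallowest, stood apart from the other 5 libraries before any test was made. On the first principal component of the 6 libraries, which held 46.5% of the variance, it lay at 61.2 and the others between -30.5 and 12.7. Ribosomal RNA loci took 21.6 to 24.4% of gene counts in the libraries labelled grf123, against 18 to 32% in WT, with the highest share in WT replicate 3. Values are CPM, gene counts scaled to library size with edgeR's TMM factors, which compare a gene between libraries and not genes with each other. Both shoot and root genes were present in all libraries. Nuclear photosynthesis genes summed to 79387 to 87778 CPM in the libraries labelled grf123, against 76939 to 79292 CPM in WT, and root markers are given with the root hair genes. Results that rest on WT replicate 3 are given with and without it. A gene was called changed when the Benjamini-Hochberg adjusted p of edgeR's quasi-likelihood test was under 0.05. In a whole-plant sample, fewer cells of a type and less RNA per cell cannot be told apart.

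Growth-regulating factors (GRFs) are plant transcription factors that promote cell proliferation in young leaves and other organs. They act in complexes with GRF-interacting factors (GIFs), which are transcriptional coactivators, and members of the family overlap in function, so that combined mutants have smaller, narrower leaves. The microRNA miR396 pairs with the messenger RNAs of most GRFs, inside the coding sequence, and directs their cleavage. GRF1, GRF2 and GRF3 are all in this group.

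The miR396 sites of the targeted genes are shown because they are what these genes share with the rest of the regulated family. The sequences were read from the RefSeq TAIR10.1 genome. In the mature microRNA the capitals mark the seed, bases 2 to 8, and in the sites they mark bases that form Watson-Crick pairs with it. The mature miR396a-5p lies on the minus strand at chr2:4142443-4142463. The sites lie at chr2:9729944-9729965 on the plus strand in GRF1, at chr4:17726404-17726425 on the minus strand in GRF2 and at chr2:15271745-15271766 on the minus strand in GRF3, all in coding sequence.
miR396a-5p: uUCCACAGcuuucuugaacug
GRF1 site: tcGTTCAAGAAAGcCTGTGGAA
GRF2 site: tcGTTCAAGAAAGcCTGTGGAA
GRF3 site: CcGTTCAAGAAAGcCTGTGGAA
The GRF1 and GRF2 sites are identical, with 19 paired bases and 1 wobble pair, and the GRF3 site has 20 paired bases. GRF4 carries the same 22 bases as GRF3. The best match in GRF5, at 14 paired bases, is far from these. Of 6 measured genes of miR396 processing and small RNA machinery, edgeR called 0, with 0 at an unadjusted p under 0.05 and 0 by DESeq2. The precursors of miR396a and miR396b were under the count filter.

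Of the targeted genes, GRF2 was the most depleted. It had 0.812, 1.22 and 0.755 CPM in the libraries labelled grf123, against 12.4, 12.4 and 8.34 CPM in WT. The groups did not overlap, and GRF2 differed by -3.73 (log2, SE 0.36, edgeR adjusted p = 5.34e-07). GRF1 had 7.8, 7.93 and 10.02 CPM in the libraries labelled grf123, against 16.6, 15.9 and 18.9 CPM in WT. Its highest grf123 value lay below its lowest WT value, and its log2 change was -0.91 (SE 0.18, edgeR adjusted p = 0.00396). GRF3 had 24.7, 23.8 and 19.8 CPM in the libraries labelled grf123, against 15.9, 22.1 and 29.4 CPM in WT. Its values overlapped and no reduction was seen, with a log2 change near 0, at 0.08 (SE 0.16, edgeR adjusted p = 0.848). Its change turned to -0.15 without WT replicate 1 (edgeR adjusted p = 0.645) and was 0.24 without WT replicate 3 (0.474). The GRF3 level thus does not bear out the label, and every direction below belongs to the libraries labelled grf123 as they are. Reads were counted over whole genes, so counts check a mutant label only where the mutation lowers the transcript.

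Among the coactivators, AN3, also known as GIF1 and the best studied partner of GRFs in leaf growth, rose. AN3 had 16.4, 15.6 and 18.1 CPM in the libraries labelled grf123, against 8.63, 6.26 and 5.71 CPM in WT. All values of the libraries labelled grf123 were above all WT values, and the log2 change was 1.24 (SE 0.19, edgeR adjusted p = 0.000215). GIF2 and GIF3, the other coactivators, had log2 changes of 0.17 (SE 0.14) and 0.27 (SE 0.28) and were not called. GRF4, the closest in site sequence to GRF3, had 4.87, 6.71 and 7.21 CPM in the libraries labelled grf123, against 6.48, 3.49 and 2.2 CPM in WT, with overlapping groups (log2 change 0.48, SE 0.27, edgeR adjusted p = 0.363). GRF5, GRF8 and GRF9 were not called either, at log2 changes of 0.23 (SE 0.33), -0.69 (SE 0.42) and 0.16 (SE 0.43), and GRF6 and GRF7 were under the count filter. Of 10 measured family members and coactivators, 1 rose and 2 fell, while over all genes tested 2.11% were called higher and 2.77% lower. The summed level of the list was 88.4 to 90.6 CPM in the libraries labelled grf123, against 90.4 to 93.1 CPM in WT.

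**Figure D1:**
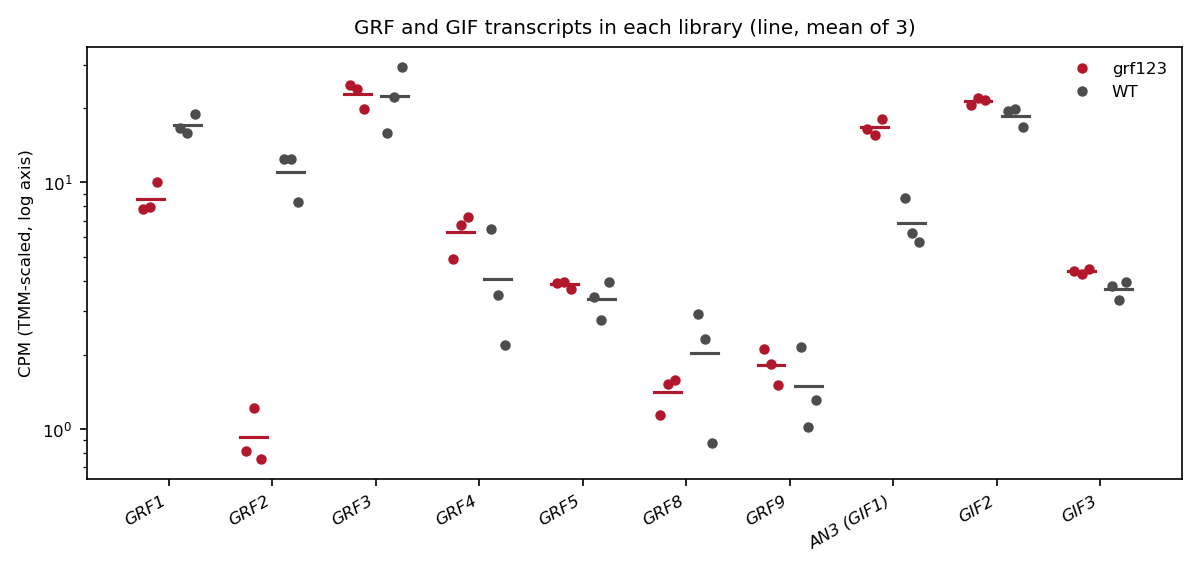
CPM of each library for GRF and GIF genes, with grf123 libraries left of WT libraries for each gene; points are libraries, lines are group means and the axis is logarithmic. GRF2 was at 0.755 to 1.22 CPM in the libraries labelled grf123, against 8.34 to 12.4 CPM in WT, AN3 lay higher in the libraries labelled grf123, and the values of GRF3 overlapped.

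Genes close to the mutated loci were counted as well. Within 100 kb of GRF1, 3 of 29 tested genes were called (10.3%), all higher. Within 100 kb of GRF2 it was 5 of 29 (17.2%), and around GRF3 3 of 37 (8.11%), while over all genes it was 4.88%. Beside GRF2 lie ANT, a growth regulator described further on, and XTH7, a wall enzyme gene. Beside GRF1, SCPL9, a serine carboxypeptidase-like gene, rose by 1.3 (log2, SE 0.26, edgeR adjusted p = 0.00324). Beside GRF3, ABI5, a bZIP factor of abscisic acid signalling, had 1.95, 3.05 and 2.27 CPM in the libraries labelled grf123, against 0.254, 1.16 and 0.439 CPM in WT (log2 change 1.82, SE 0.50, edgeR adjusted p = 0.0347), and that call was lost without grf123 replicate 2 (edgeR adjusted p = 0.0827), without grf123 replicate 3 (0.121), without WT replicate 1 (0.189) or without WT replicate 3 (0.0675). Of the 11 calls, those of SCPL9 and XTH7 held without each library in turn. The part of their position in these changes was not tested.

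Across the genome 17938 genes had enough counts to be tested, and 875 (4.88%) were called. Of these, 378 (2.11%) were higher in the libraries labelled grf123 and 497 (2.77%) were lower. At least 2-fold changes were seen in 119 higher and 200 lower genes (0.663% and 1.11%), and at least 4-fold changes in 13 higher and 62 lower genes. The median log2 change was 0.76 among the higher calls and -0.86 among the lower calls, against 0.01 over all genes. In 365 of the higher and 484 of the lower calls the groups of libraries did not overlap, which over all tested genes was the case for 10.4% in the higher and 10.5% in the lower direction. Most calls share this trait, so the non-overlap given for single called genes is no support beyond the call. The number of calls depended on single libraries. It was 377 (153 higher and 224 lower) without grf123 replicate 3, the deepest library, 479 (163 higher and 316 lower) without WT replicate 2, and 683 (300 higher and 383 lower) without WT replicate 3, with 598 of the 875 genes shared in that last case. The number of calls with at least a 2-fold change was 168 without grf123 replicate 3.

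**Figure D2:**
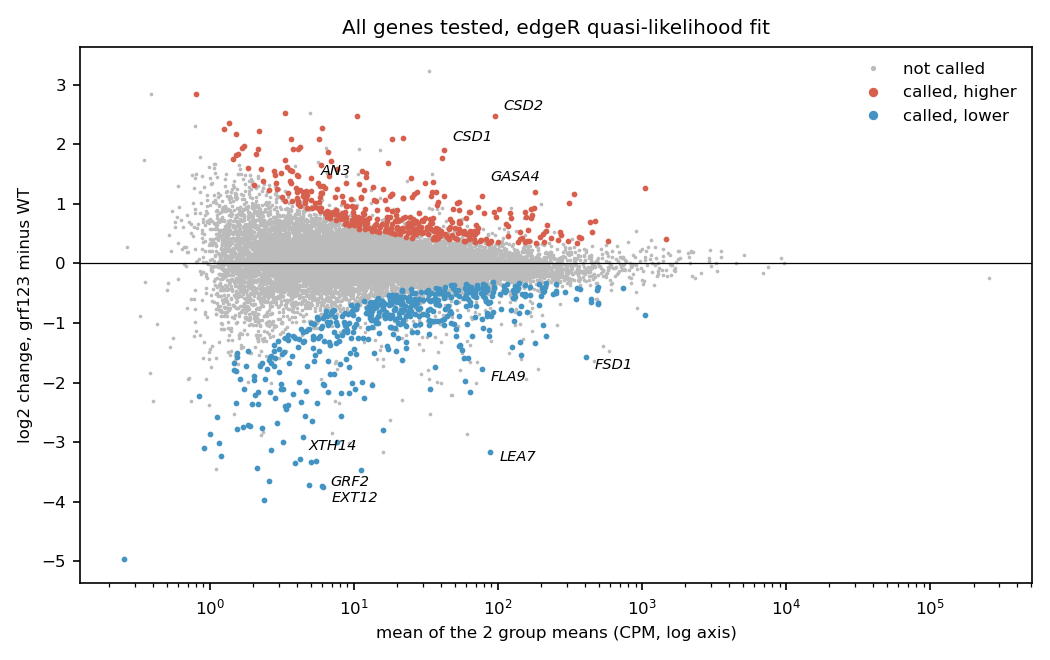
Log2 change, grf123 minus WT, on the vertical axis against mean level in CPM on a log horizontal axis for all 17938 tested genes; each point is a gene and coloured points are calls. The 62 calls at least 4-fold lower outnumber the 13 at least 4-fold higher.

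Gene lists for processes of leaf growth, cell walls, nutrients, hormones, stress and markers of other organs were then described by their counts of calls. The largest shares were in lists of aliphatic glucosinolate genes (14 of 19 higher), root hair and extensin genes (10 of 18 lower), XTH genes (10 of 22 lower) and phosphate starvation genes (11 of 28 lower and 1 higher). Over all genes the shares were 2.11% higher and 2.77% lower. The lists were chosen with earlier results of these data known, so a larger share in a list is no independent result. The counts of these lists without single libraries are given with each list. Counts at an unadjusted p under 0.05 are given without the share over all genes and are no result about a list.

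**Figure D3:**
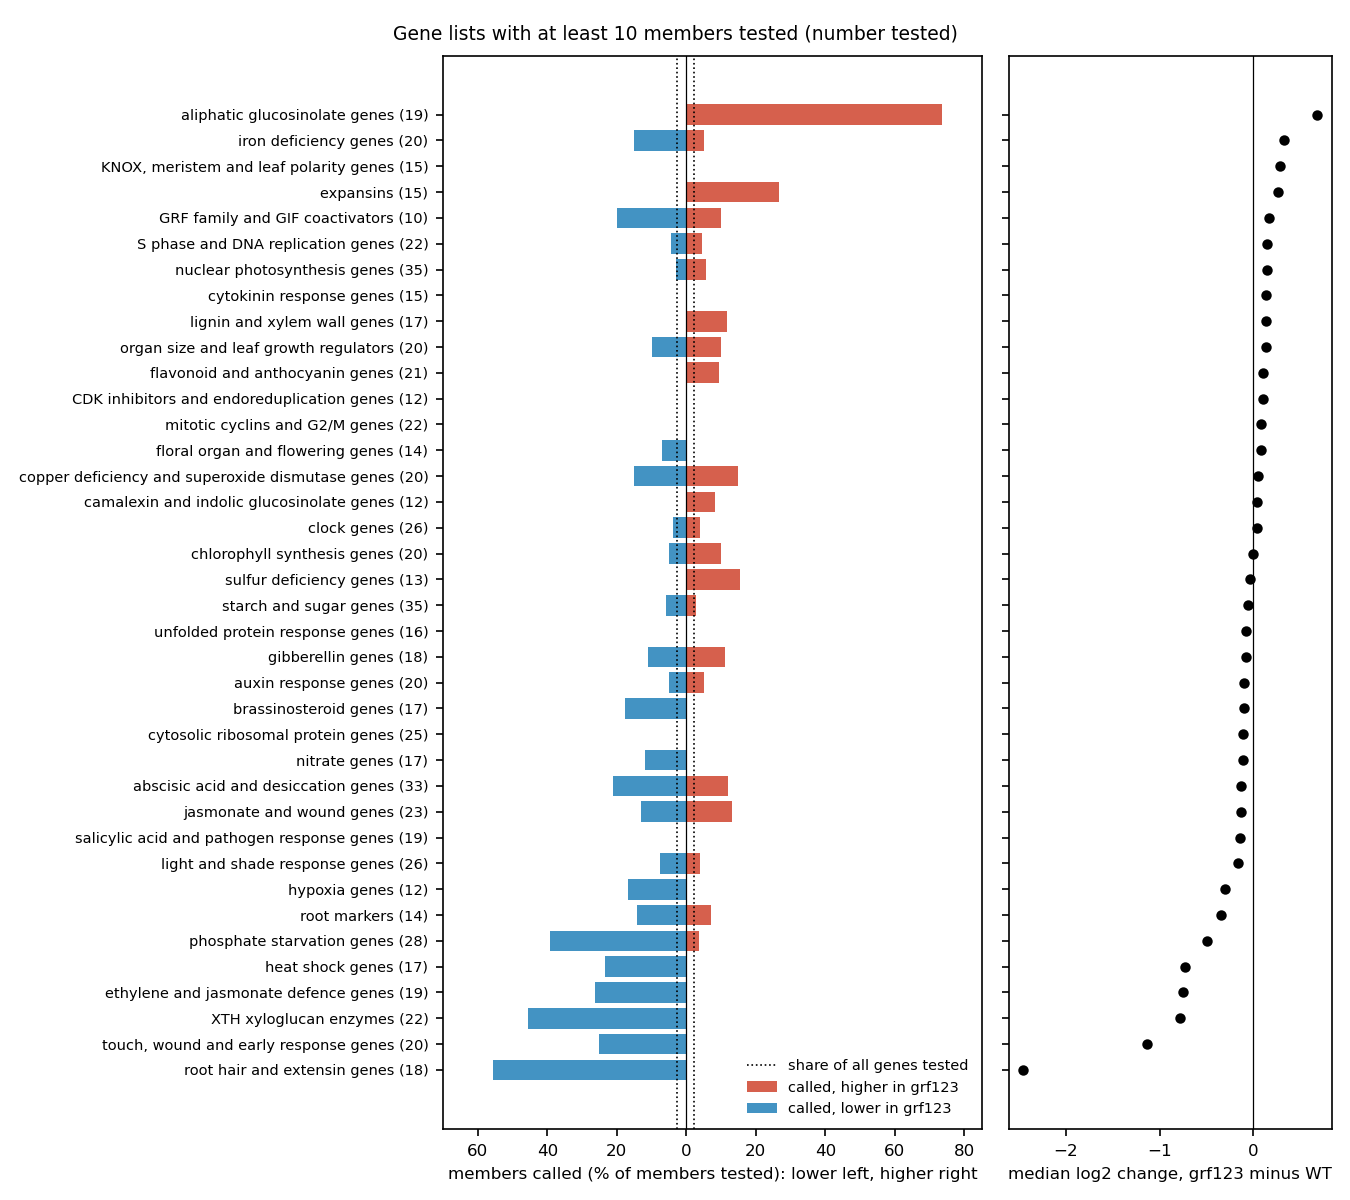
The 38 gene lists with at least 10 tested genes, 1 per row. The left panel gives the percent of tested members called, with bars to the right for higher and to the left for lower in the libraries labelled grf123 and dotted lines for the shares of all genes (2.11% and 2.77%), and the right panel gives the median log2 change, grf123 minus WT, which is -2.45 for root hair and extensin genes and 0.68 for aliphatic glucosinolate genes.

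Wall protein genes of root hairs had the lowest median of the lists with at least 10 tested genes. Root hairs are tubular outgrowths of root epidermal cells, and their walls are rich in extensins and proline-rich glycoproteins. Of 24 genes on the list, 18 passed the count filter, 10 were called and all 10 were lower, with a list median of -2.45 (log2). Without single libraries 8 to 10 were called lower, and without WT replicate 3 it was 9, with a median of -2.44. EXT12, an extensin gene, had 1.14, 0.305 and 0.892 CPM in the libraries labelled grf123, against 11.2, 15.1 and 7.9 CPM in WT. Every grf123 library was far below every WT library, and the log2 change was -3.75 (SE 0.37, edgeR adjusted p = 7.93e-07). RHS13, a root hair specific gene of an extensin-related family, had 0.325, 0.305 and 0.275 CPM in the libraries labelled grf123, against 6.09, 4.95 and 2.2 CPM in WT (log2 change -3.98, SE 0.49, edgeR adjusted p = 1.52e-05). RHS19, a root hair specific peroxidase gene, had 0.65, 0 and 0.892 CPM in the libraries labelled grf123, against 6.73, 6.84 and 8.34 CPM in WT (log2 change -3.34, SE 0.44, edgeR adjusted p = 4.24e-05). These genes had values near 0 in the mutant-labelled libraries and higher values in all WT libraries. The lowest of these WT values, 2.2 CPM for RHS13, came from replicate 3, the shallowest library, and rests on few reads. EXT13, EXT10, PRP1 and PRP3, further extensin and proline-rich protein genes, fell by 3.72, 2.79, 3.43 and 2.55 in log2 (SE 0.41, 0.46, 0.60 and 0.33). LRX1, a leucine-rich repeat extensin that shapes root hair walls, fell by 2.56 (SE 0.48), and its call was lost without grf123 replicate 3 (edgeR adjusted p = 0.0553). The call of RHS12 was lost without WT replicate 1 (edgeR adjusted p = 0.0588). The call of MOP10 was lost without grf123 replicate 1 (edgeR adjusted p = 0.0512), without grf123 replicate 2 (0.0732), without grf123 replicate 3 (0.17), without WT replicate 2 (0.104) or without WT replicate 3 (0.0719).

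The other tested genes of the root hair and extensin list were not called. EXT3, an extensin needed for wall assembly, had 1466, 1737 and 2008 CPM in the libraries labelled grf123, against 1889.6, 1314 and 1944 CPM in WT, with overlapping groups (log2 change 0.02, SE 0.16). EXT4 had a log2 change of -0.05 (SE 0.18), and RHD2, the NADPH oxidase gene of hair tip growth, of 0.40 (SE 0.26). EXT3 and EXT4 hold most of the counts of the list, whose sum was at 2135 to 3085 CPM in the libraries labelled grf123, against 2374 to 2979 CPM in WT. Of 14 tested root markers 1 rose and 2 fell (0 to 2 and 1 to 2 without single libraries). Their median log2 change was -0.35, with 4 positive and 10 negative changes. In 2 of them every grf123 library lay above every WT library, and in 4 below. Over all tested genes this held for 10.4% and 10.5%. Their summed level was 1507 to 1745 CPM in the libraries labelled grf123, against 1463 to 1660 CPM in WT, with overlapping ranges. Extensin genes carry long repeats, and reads that align to more than 1 place were not counted, which makes their levels uncertain.

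A known root hair element, a sequence shared by promoters active in hair cells, was searched by its published pattern on both strands in the 250 bases before each gene start. It was found in 4 of the 10 lowered list members (40%), in 4 of the 18 tested members (22.2%) and in 120 of 17913 promoters of tested genes (0.67%). Since the element is known from promoters active in hair cells, a higher share in a list of root hair genes is no independent result. The windows are printed to show the elements, in capitals, with flanking bases from RefSeq TAIR10.1. They lie at chr1:4069879-4069934 for LRX1, chr1:20504752-20504808 for PRP1 and chr3:23182535-23182591 for PRP3, all on the plus strand, and at chr4:993213-993269 on the minus strand for RHS13.
LRX1: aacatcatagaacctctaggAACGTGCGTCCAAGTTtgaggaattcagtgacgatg
PRP1: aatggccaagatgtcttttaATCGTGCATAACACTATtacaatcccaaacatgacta
PRP3: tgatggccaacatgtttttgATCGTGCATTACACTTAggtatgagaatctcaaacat
RHS13: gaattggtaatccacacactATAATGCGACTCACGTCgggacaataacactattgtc
The elements begin 93, 129, 167 and 210 bases before the starts of LRX1, PRP1, PRP3 and RHS13. A match is a description of these letters and not a measured binding site. The motif TGTCAGG, reported to be bound by GRFs, was in 2 of 378 promoters of higher genes (0.529%), in 4 of 496 promoters of lower genes (0.806%) and in 0.776% of all, on both strands.

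XTH enzymes cut and rejoin xyloglucan, the hemicellulose that tethers cellulose, and expansins loosen walls during growth. Of 22 tested XTH genes 10 were called and all were lower, with a list median of -0.78 (log2). XTH14 had 0.325, 0.61 and 1.1 CPM in the libraries labelled grf123, against 8.51, 7.86 and 7.03 CPM in WT. These groups were far apart, at a log2 change of -3.27 (with SE 0.40, edgeR adjusted p = 1.52e-05). XTH24 had 84, 79 and 58.7 CPM in the libraries labelled grf123, against 152, 249 and 242 CPM in WT (log2 change -1.54, SE 0.23, edgeR adjusted p = 0.00396). XTH15 and XTH7 fell by 1.5 (SE 0.24) and 0.97 (SE 0.17) in log2. The summed level of the list was 560 to 625 CPM in the libraries labelled grf123, against 932 to 1381 CPM in WT, highest in WT replicate 3. Without grf123 replicate 3 only 5 XTH genes were called lower, and without WT replicate 2 it was 7. The number was 9 without grf123 replicate 1 or 2 and 11 without WT replicate 1. Without WT replicate 3 it was 10, with a median of -0.60. TCH4, a touch-induced XTH, had 18.5, 12.8 and 9.95 CPM in the libraries labelled grf123, against 32.9, 47.7 and 243 CPM in WT, and was not called (edgeR adjusted p = 0.0848).

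Of 15 tested expansins 4 were called, all higher, with a list median of 0.27 (log2). Without single libraries 3 to 4 were called higher, and without WT replicate 3 it was 4, with a median of 0.19. The summed level of the list was 696 to 780 CPM in the libraries labelled grf123, against 680, 656 and 358 CPM in WT, lowest in replicate 3. EXPA15 had 40.9, 40.9 and 54.8 CPM in the libraries labelled grf123, against 23.2, 16 and 11.9 CPM in WT (log2 change 1.35, SE 0.17, edgeR adjusted p = 4.79e-05). EXPB3 had 50.7, 63.7 and 60.8 CPM in the libraries labelled grf123, against 30.5, 25.8 and 21.5 CPM in WT (log2 change 1.12, SE 0.13, edgeR adjusted p = 8.59e-06). Neither gene overlapped between the groups, and EXPA4 rose by 0.89 (SE 0.18). EXPB1 did overlap between the groups, and its call was lost without grf123 replicate 2 (edgeR adjusted p = 0.0832), without grf123 replicate 3 (0.301), without WT replicate 1 (0.112) or without WT replicate 2 (0.113). Fasciclin-like arabinogalactan proteins, wall glycoproteins picked out here after their values were seen, had 4 of 13 tested genes called, all lower. FLA9 had 40.4, 33.8 and 30.1 CPM in the libraries labelled grf123, against 104, 108 and 149 CPM in WT (log2 change -1.78, SE 0.15, edgeR adjusted p = 5.34e-07). FLA2 had 30.9, 28.1 and 29.9 CPM in the libraries labelled grf123, against 81.3, 69.9 and 82.1 CPM in WT (log2 change -1.38, SE 0.13, edgeR adjusted p = 5.13e-07). Both genes were lower in every grf123 library than in any WT library, and the calls of all 4 genes held without each library in turn.

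**Figure D4:**
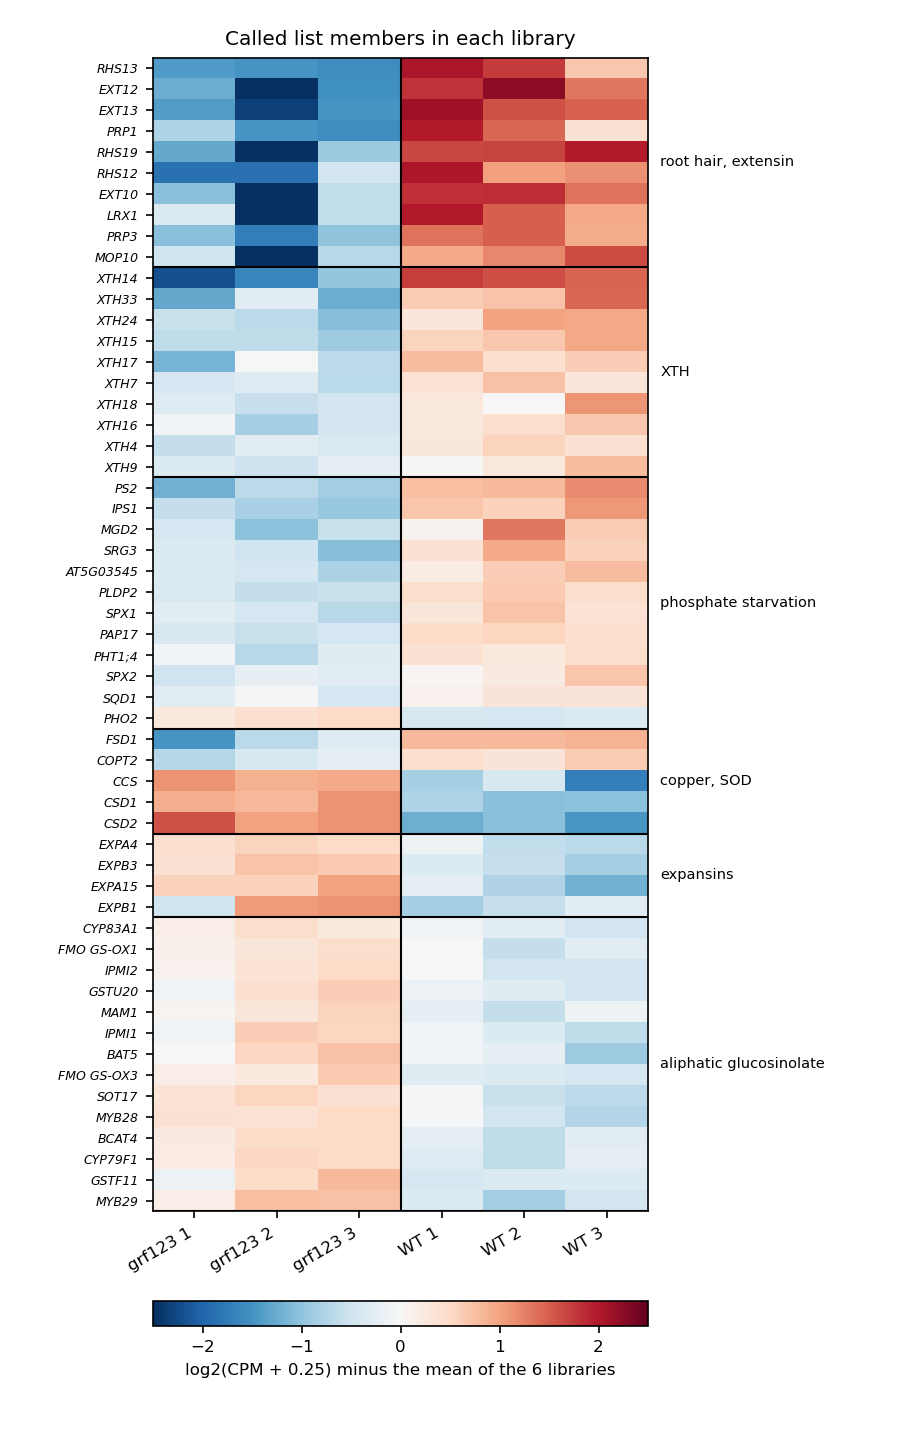
Level of 55 called list members (rows) in each library (columns, grf123 left of WT), as log2(CPM + 0.25) minus the mean of the 6 libraries, red for higher and blue for lower. Root hair, XTH and most phosphate starvation genes are blue in the libraries labelled grf123, and expansins, glucosinolate genes, CSD1, CSD2 and CCS are red.

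Copper proteins of the superoxide defence changed in opposite directions to their iron counterpart. Plants hold copper/zinc superoxide dismutases, CSD1 in the cytosol and CSD2 in the chloroplast, which CCS loads with copper, and an iron superoxide dismutase, FSD1. When copper is scarce, miR398 represses the copper genes and FSD1 is expressed in their place. CSD2 had 203, 134 and 146 CPM in the libraries labelled grf123, against 28.6, 32 and 24.2 CPM in WT. That was the largest increase of the list, at 2.48 (log2, SE 0.22, edgeR adjusted p = 4.79e-05). CSD1 had 64.3, 59.8 and 74.7 CPM in the libraries labelled grf123, against 19.9, 16.3 and 16.7 CPM in WT (log2 change 1.9, SE 0.16, edgeR adjusted p = 3.86e-07). CCS had 70.5, 59.5 and 61.9 CPM in the libraries labelled grf123, against 17.9, 24.3 and 9.66 CPM in WT (log2 change 1.78, SE 0.19, edgeR adjusted p = 2.36e-05). None of the groups overlapped, and these calls held without each library in turn. FSD1 had 124, 215 and 274 CPM in the libraries labelled grf123, against 600.4, 605 and 629 CPM in WT. Every grf123 value was less than any WT value (log2 change -1.58, SE 0.24, edgeR adjusted p = 0.00469), though the call was lost in a fit of the 6 libraries alone (edgeR adjusted p = 0.0688). COPT2, a copper uptake transporter gene, had 5.52, 7.01 and 7.76 CPM in the libraries labelled grf123, against 12.4, 11.6 and 14.5 CPM in WT (log2 change -0.86, SE 0.19, edgeR adjusted p = 0.00702).

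Of 20 tested genes of the copper list 3 rose and 3 fell, and the list median was 0.05 (log2). In the fit of the 6 libraries alone 3 rose and 1 fell. FRO5, a copper reductase gene, had 0 counts in each of the 3 libraries labelled grf123, against 5, 3 and 1 counts in WT, and its call was lost without grf123 replicate 3 (edgeR adjusted p = 0.203), without WT replicate 1 (0.0799) or without WT replicate 2 (0.058). SPL7, the transcription factor of the copper response, had a log2 change of 0.15 (SE 0.12), and DRT112, a plastocyanin and an abundant copper protein of photosynthesis, of -0.03 (SE 0.10). Neither was called. The miR398 sites are shown for the genes that rose together and for their place outside or inside the coding sequence. Mature miR398b-3p lies at chr5:4691107-4691127 on the plus strand, with its seed in capitals, and capitals in the sites mark Watson-Crick pairs with it. The CSD1 site is in the 5′ UTR and spans an intron on the plus strand between chr1:2827177-2827685, the CSD2 site lies in coding sequence at chr2:12015572-12015593 on the plus strand, and the CCS site in coding sequence at chr1:4267521-4267542 on the minus strand.
miR398b-3p: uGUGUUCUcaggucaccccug
CSD1 site: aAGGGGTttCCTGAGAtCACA
CSD2 site: tgcGGGTGACCTGgGaAACAtA
CCS site: CAttGGgaGACCTGgGAACACt
They have 17, 16 and 16 paired bases. The best match in FSD1, which moved the other way, has 14. Whether miR398 had a part in these changes was not tested.

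Of 28 tested phosphate starvation genes 11 were called lower, and PHO2, which limits phosphate uptake, was the 1 called higher. In this response PHR1 activates target genes under low phosphate, and miR399 represses PHO2, a ubiquitin-conjugating enzyme gene, while the non-coding IPS1 transcript binds miR399 without being cleaved. PHO2 had 182, 199.7 and 215 CPM in the libraries labelled grf123, against 115, 113 and 119 CPM in WT. It was higher in every grf123 library, by 0.78 in log2 (SE 0.09, edgeR adjusted p = 1.4e-05). The list median was -0.49 (log2). Without grf123 replicate 3 the lower calls numbered 5, without WT replicate 2 they numbered 6, and without WT replicate 3 they numbered 9, with a median of -0.49. PAP17, an acid phosphatase gene, had 30.2, 27.1 and 29.6 CPM in the libraries labelled grf123, against 55.2, 58.1 and 53.6 CPM in WT (log2 change -0.94, SE 0.13, edgeR adjusted p = 4.2e-05). SPX1, a phosphate sensor that restrains PHR1, had 29.7, 27.1 and 22.2 CPM in the libraries labelled grf123, against 44.7, 59.8 and 46.5 CPM in WT (log2 change -0.97, SE 0.15, edgeR adjusted p = 0.000657). SRG3, a glycerophosphodiester phosphodiesterase gene, and PLDP2, a phospholipase D gene of lipid remodelling, fell by 1.38 (SE 0.23) and 1.06 (SE 0.19) in log2. The groups did not overlap for any of these genes. IPS1 had 1.46, 1.22 and 1.1 CPM in the libraries labelled grf123, against 3.94, 3.64 and 5.27 CPM in WT (log2 change -1.72, SE 0.38, edgeR adjusted p = 0.00852), and its call was lost without grf123 replicate 3 (edgeR adjusted p = 0.119). PHR1 itself, with a log2 change of -0.04 (SE 0.10), and the uptake carrier gene PHT1;1, with 0.25 (SE 0.19), were not called. PHT4;5, a plastid phosphate transporter gene outside the list, had 53.6, 49.1 and 47.5 CPM in the libraries labelled grf123, against 26.7, 25.2 and 23.3 CPM in WT, higher in all of them (log2 change 0.98, SE 0.11, edgeR adjusted p = 4.52e-06).

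The miR399 sites of PHO2 and IPS1 are printed because these transcripts moved in opposite directions and pair with the microRNA differently. Mature miR399c-3p lies at chr5:24962568-24962588 on the plus strand. The PHO2 site shown, in the 5′ UTR, lies at chr2:14282106-14282126 on the minus strand, and the IPS1 site at chr3:3051224-3051247 on the plus strand. Capitals mark the seed in the microRNA and paired bases in the sites.
miR399c-3p: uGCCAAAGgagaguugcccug
PHO2 site: tAGGGCAAaTCTtCTTTGGCA
IPS1 site: ttGGGCAACTtctaTCCTTTGGCA
Both have 18 paired bases, and in IPS1 4 of the 6 bases without a Watson-Crick pair lie in the middle of the site. Whether miR399 had a part in the changes of PHO2 and IPS1 was not tested. The motif GNATATNC, known as P1BS and bound by PHR1, was searched on both strands in the 250 bases before gene starts. It was in 5 of the 11 lowered genes (45.5%), in 8 of 28 tested members (28.6%) and in 971 of 17913 promoters (5.42%). Since PHR1 activates genes of this response, a higher share in this list is no independent result. The 5 windows, motif in capitals, lie at chr5:894536-894581, chr5:6896429-6896462 and chr3:1634994-1635041 on the plus strand for AT5G03545, MGD2 and PLDP2, and at chr1:27466538-27466585 and chr3:350110-350157 on the minus strand for PS2 and SRG3.
AT5G03545: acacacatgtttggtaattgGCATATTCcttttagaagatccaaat
MGD2: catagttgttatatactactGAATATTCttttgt
PLDP2: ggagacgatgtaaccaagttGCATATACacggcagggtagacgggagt
PS2: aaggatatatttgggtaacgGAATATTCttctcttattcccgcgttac
SRG3: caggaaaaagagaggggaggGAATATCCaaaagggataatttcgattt
AT5G03545 had a log2 change of -1.09 (SE 0.27), MGD2, a galactolipid synthase gene, of -1.49 (SE 0.36) and PS2, a phosphatase gene, of -1.86 (SE 0.45). Their calls were lost without grf123 replicate 2 (edgeR adjusted p = 0.0732), without grf123 replicate 3 (0.243), without WT replicate 2 (0.138) or without WT replicate 3 (0.0911) for AT5G03545, without grf123 replicate 3 (edgeR adjusted p = 0.0916) or without WT replicate 2 (0.235) for MGD2, and without grf123 replicate 1 (edgeR adjusted p = 0.112), without grf123 replicate 2 (0.0871), without grf123 replicate 3 (0.236), without WT replicate 1 (0.0778), without WT replicate 2 (0.119) or without WT replicate 3 (0.112) for PS2.

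Aliphatic glucosinolates are methionine-derived defence compounds of the cabbage family, made under the control of MYB28 and MYB29. Of 19 tested genes all 19 had a positive log2 change and 14 were called higher, with a median of 0.68. MYB29 had 18.5, 27.7 and 27.3 CPM in the libraries labelled grf123, against 13, 9.02 and 11.9 CPM in WT (log2 change 1.13, SE 0.18, edgeR adjusted p = 0.000414). MYB28 had 44.2, 43.6 and 47.5 CPM in the libraries labelled grf123, against 32.6, 24.3 and 20.199 CPM in WT (log2 change 0.76, SE 0.13, edgeR adjusted p = 0.000884). BCAT4, which begins methionine chain elongation, had 108, 127 and 130.1 CPM in the libraries labelled grf123, against 78.3, 59.7 and 77.3 CPM in WT (log2 change 0.77, SE 0.12, edgeR adjusted p = 0.0002). For these genes every grf123 library was above every WT library, and their calls held without each library in turn. The calls of CYP79F1 and CYP83A1, cytochromes of core synthesis, and of SOT17, a sulfotransferase gene of its last step, likewise held, at log2 changes of 0.81 (SE 0.14), 0.55 (SE 0.11) and 0.76 (SE 0.13). CYP79F1 has a near-identical neighbour, CYP79F2, so its count is uncertain. The list had 9 calls in the fit of the 6 libraries alone. Without grf123 replicate 2 it had 9, without grf123 replicate 3 it had 8, without WT replicate 2 it had 7 and without WT replicate 3 it had 11, all higher. MYB34, a regulator of the indolic branch, had 23.1, 29.9 and 26.8 CPM in the libraries labelled grf123, against 17.396, 13.8 and 7.9 CPM in WT (log2 change 0.90, SE 0.18, edgeR adjusted p = 0.00418), and it was the 1 called gene of 12 tested on the camalexin and indolic list. SULTR2;1, a sulfate transporter gene, rose by 0.76 (SE 0.14) in log2. It is on the list of sulfur deficiency genes, of which 2 of 13 tested were called higher and 0 lower. That list had a median log2 change of -0.04, with 6 positive and 7 negative changes.

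WT replicate 3 stood out in genes of handling and acute stress. Touch, wound and early response genes summed to 266 to 291 CPM in the libraries labelled grf123, against 357, 396 and 1113 CPM in WT, with the high value in replicate 3. Of 20 tested genes 5 were called, all lower, and the median log2 change was -1.13. DESeq2 called 10 lower, and the fit of the 6 libraries alone 2. Without WT replicate 3, 8 were called lower and the median was -0.64. Without grf123 replicate 1 or 2 or WT replicate 2 the lower calls numbered 3, and without grf123 replicate 3 they numbered 1. TCH2, a calmodulin-like gene induced by touch, had 5.85, 6.71 and 6.52 CPM in the libraries labelled grf123, against 10.8, 10.9 and 20.6 CPM in WT (log2 change -1.02, SE 0.22, edgeR adjusted p = 0.00724). The groups did not overlap, and replicate 3 was the highest WT library. The part of handling in the changes described here was not tested.

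Ethylene and jasmonate defence genes had 5 calls of 19 tested, all lower, with a median of -0.75. There were 9 by DESeq2 and 8 without WT replicate 1. ORA59, an integrator of ethylene and jasmonate defence, had 3.25, 3.35 and 1.3 CPM in the libraries labelled grf123, against 7.49, 9.17 and 12.7 CPM in WT (log2 change -2.04, SE 0.33, edgeR adjusted p = 0.00072). All grf123 values were below all WT values. EBF2, which restrains ethylene signalling, fell by 0.71 in log2 (SE 0.13). Heat shock genes had 4 calls of 17 tested, all lower, with a median of -0.73, and 1 without grf123 replicate 3. HSP101, a chaperone that dissolves protein aggregates, had 16.4, 13.7 and 14.1 CPM in the libraries labelled grf123, against 24.3, 31.9 and 30.3 CPM in WT (log2 change -0.95, SE 0.19, edgeR adjusted p = 0.0039), and its call held without each library in turn. Of 19 tested salicylic acid and pathogen response genes edgeR called 0, with 5 at an unadjusted p under 0.05 and 2 called by DESeq2. Without single libraries 0 to 2 were called. PR1, a pathogen response marker, was uneven, at 17.5, 54.3 and 105 CPM in the libraries labelled grf123, against 6.09, 4.8 and 11.9 CPM in WT, and was not called (edgeR adjusted p = 0.0693).

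Genes of abscisic acid and desiccation split in both directions, with 4 higher and 7 lower of 33 tested and a median of -0.13. In the fit of the 6 libraries alone 2 were higher and 8 lower. Without grf123 replicate 1 there were 9 higher, without grf123 replicate 3 there was 1, and without grf123 replicate 2 or WT replicate 1 or 2 there were 2. The lower calls numbered 3 without grf123 replicate 2 and 4 without grf123 replicate 3. PYL6, an abscisic acid receptor gene, had 6.17, 1.52 and 3.64 CPM in the libraries labelled grf123, against 17.9, 19.4 and 21.5 CPM in WT (log2 change -2.26, SE 0.24, edgeR adjusted p = 4.52e-06). LEA4-5, a late embryogenesis abundant protein gene that is also induced by drying, had 3.57, 6.1 and 4.6 CPM in the libraries labelled grf123, against 17, 20.8 and 16.2 CPM in WT (log2 change -1.99, SE 0.28, edgeR adjusted p = 9.89e-05). COR15B, a cold-induced chloroplast protein gene, went the other way, with 7.15, 10.4 and 13.6 CPM in the libraries labelled grf123, against 3.05, 3.2 and 3.95 CPM in WT (log2 change 1.72, SE 0.27, edgeR adjusted p = 0.000304). None of these genes overlapped between the groups, and their calls held without each library in turn. LEA7 had 13.6, 17.1 and 20.7 CPM in the libraries labelled grf123, against 137, 130.1 and 213 CPM in WT (log2 change -3.16, SE 0.63, edgeR adjusted p = 0.0287), and its call was lost without grf123 replicate 1 (edgeR adjusted p = 0.076), without grf123 replicate 2 (0.0872), without grf123 replicate 3 (0.112), without WT replicate 2 (0.0697) or without WT replicate 3 (0.0591). LEA genes are also abundant in seeds. Of 18 seed storage and oleosin genes 4 passed the filter, and the whole list summed to 2.44 to 45.4 CPM in the libraries labelled grf123, against 12.3 to 65.4 CPM in WT. The part of seed RNA in these changes was not tested.

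Of 20 tested iron deficiency genes 1 was called higher and 3 lower, 13 had a positive change, and the list median was 0.32 (log2), or -0.14 without grf123 replicate 1. NAS3, a nicotianamine synthase gene, had 2.92, 3.05 and 2.2 CPM in the libraries labelled grf123, against 11.7, 15 and 4.83 CPM in WT (log2 change -2.15, SE 0.29, edgeR adjusted p = 4.79e-05). YSL2, a transporter gene for metal complexes with nicotianamine, had 13.2, 17.1 and 14.3 CPM in the libraries labelled grf123, against 28.4, 30.4 and 28.5 CPM in WT (log2 change -1.01, SE 0.14, edgeR adjusted p = 4.17e-05). NAS4 had 39.1, 31.1 and 20.4 CPM in the libraries labelled grf123, against 13.6, 14.4 and 12.3 CPM in WT (log2 change 1.1, SE 0.21, edgeR adjusted p = 0.00469). The groups did not overlap in any of these genes. YSL3, a relative of YSL2, fell by 1.03 (SE 0.17). The list had 2 higher and 4 lower calls without grf123 replicate 3.

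Lists of the cell cycle, the meristem and leaf polarity, cytokinin response and ribosomal proteins had 0 to 2 calls each. Of 22 tested mitotic and G2/M genes edgeR called 0, with 1 at an unadjusted p under 0.05 and 0 called by DESeq2, and 2 were called higher without WT replicate 1. CYCB1;1, a mitotic cyclin gene, had 4.71, 7.01 and 6.04 CPM in the libraries labelled grf123, against 5.84, 5.68 and 2.63 CPM in WT (log2 change 0.17, SE 0.25), and CYCD3;1, a cyclin gene of cell cycle entry, had a log2 change of 0.31 (SE 0.15). Of 22 tested S phase and DNA replication genes 1 was called higher and 1 lower, with 0 to 1 in each direction without single libraries, and 0 of either in the fit of the 6 libraries alone. Of 12 CDK inhibitor and endoreduplication genes edgeR called 0, with 0 at an unadjusted p under 0.05 and 0 called by DESeq2. Of 15 KNOX, meristem and leaf polarity genes edgeR called 0, with 3 at an unadjusted p under 0.05 and 0 called by DESeq2. The list median was 0.29 (log2), 13 of the 15 changes were positive, and in 6 every grf123 library lay above every WT library, which held for 10.4% of all tested genes. In other fits some were called, all higher: 3 with upper-quartile factors, 2 with the length trend removed, and 1 with the replicate block, without the count filter or without grf123 replicate 1. AS1, a leaf MYB factor that keeps KNOX genes silent, had 56.9, 64.6 and 57.9 CPM in the libraries labelled grf123, against 48.9, 49.1 and 36.9 CPM in WT, without overlap, at an edgeR adjusted p = 0.0597. Of 15 cytokinin response genes edgeR called 0, with 3 at an unadjusted p under 0.05 and 0 called by DESeq2, and 1 was called higher without WT replicate 1 or WT replicate 3. Of 25 cytosolic ribosomal protein genes edgeR called 0, with 6 at an unadjusted p under 0.05, all lower, and 0 called by DESeq2. Their log2 changes were negative in 21 of 25, and in 8 every grf123 library lay below every WT library, which held for 10.5% of all tested genes. With the length trend removed 3 were called lower, and without grf123 replicate 3 it was 1.

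Organ size regulators had 2 higher and 2 lower calls among 20 tested genes, and 0 to 2 higher calls without single libraries. ARGOS and ARL are related genes that extend growth by proliferation and by expansion. ARGOS had 2.27, 4.27 and 3.23 CPM in the libraries labelled grf123, against 9.52, 9.46 and 5.71 CPM in WT (log2 change -1.47, SE 0.29, edgeR adjusted p = 0.00268). ARL had 11, 13.4 and 11.1 CPM in the libraries labelled grf123, against 20.19, 32 and 33.4 CPM in WT (log2 change -1.25, SE 0.21, edgeR adjusted p = 0.00177). Both were lower in every grf123 library. ANT, an AP2 factor known to act downstream of ARGOS and a neighbour of GRF2 on chromosome 4, had 20.5, 23.8 and 22.9 CPM in the libraries labelled grf123, against 14.6, 10.5 and 14.9 CPM in WT (log2 change 0.77, SE 0.16, edgeR adjusted p = 0.00513), and its call was lost without WT replicate 2 (edgeR adjusted p = 0.0716). SPL9, a phase change factor, had a log2 change of 0.80 (SE 0.23), and its call was lost without grf123 replicate 2 (edgeR adjusted p = 0.158), without grf123 replicate 3 (0.144), without WT replicate 1 (0.129), without WT replicate 2 (0.0623) or without WT replicate 3 (0.112).

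Of 18 tested gibberellin genes 2 were called higher and 2 lower, with 1 to 3 higher and 1 to 2 lower without single libraries, and of 17 tested brassinosteroid genes 3 were called lower. GASA4, a gibberellin-regulated peptide gene, had 88.2, 114 and 118 CPM in the libraries labelled grf123, against 53.8, 47.7 and 43 CPM in WT (log2 change 1.13, SE 0.12, edgeR adjusted p = 2.18e-06). GASA1, of the same family, moved the other way, with 59.8, 45.7 and 40.1 CPM in the libraries labelled grf123, against 76.3, 77.3 and 81.2 CPM in WT (log2 change -0.69, SE 0.13, edgeR adjusted p = 0.00191). BEE3, a brassinosteroid-responsive bHLH gene, had 15.6, 16.5 and 12.5 CPM in the libraries labelled grf123, against 24.9, 30.6 and 36.9 CPM in WT (log2 change -1.05, SE 0.15, edgeR adjusted p = 0.000118). In all of these genes the groups did not overlap. BEE1, its relative, fell by 1.13 (SE 0.21). Of the flavonoid list, PAL4, a phenylalanine ammonia-lyase gene, had 50.8, 57.6 and 45.5 CPM in the libraries labelled grf123, against 22.7, 18.5 and 26.8 CPM in WT (log2 change 1.2, SE 0.14, edgeR adjusted p = 6.35e-06), and 4CL1, which follows it in the phenylpropanoid pathway, rose by 0.53 (SE 0.10), the 2 calls among 21 tested genes.

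Outside the lists, CER1, a gene of wax alkane synthesis, had 217, 213 and 229.6 CPM in the libraries labelled grf123, against 123, 113 and 114 CPM in WT (log2 change 0.91, SE 0.11, edgeR adjusted p = 1.57e-05). DOT1, a glycine-rich protein gene of vein patterning, had 418, 406 and 423 CPM in the libraries labelled grf123, against 200.1, 179.9 and 243 CPM in WT (log2 change 1.01, SE 0.12, edgeR adjusted p = 1.52e-05). Neither gene overlapped between the groups. LTP5, a lipid transfer protein gene, was lower, with 158, 133 and 112 CPM in the libraries labelled grf123, against 249.6, 288 and 284 CPM in WT (log2 change -1.03, SE 0.11, edgeR adjusted p = 3.79e-06). THAS1, a thalianol synthase gene of root triterpene synthesis, had 12, 16.5 and 24.2 CPM in the libraries labelled grf123, against 5.46, 7.13 and 7.03 CPM in WT (log2 change 1.52, SE 0.25, edgeR adjusted p = 0.00111). CYP71B22, a cytochrome of unassigned role, fell by 2.91 in log2 (SE 0.41, edgeR adjusted p = 9.65e-05).

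The same genes were then read in the overexpressors. All 3 comparisons use the same WT libraries, so their values are set side by side only. GRF2 was also low in the other lines, at 1.28, 0.309 and 0.638 CPM in GRF1_OE and 0.942, 1.1 and 0.565 CPM in GRF3_OE, with log2 changes against WT of -4.03 and -3.72. Low GRF2 was thus measured in all 3 lines other than WT. GRF1 in GRF3_OE had 8.95, 8.67 and 8.93 CPM, a log2 difference from WT of -0.92 (SE 0.18, edgeR adjusted p = 0.0026), beside -0.91 in the libraries labelled grf123. AN3 had log2 changes of 1.24 in the libraries labelled grf123, 0.81 in GRF1_OE and 0.62 in GRF3_OE, higher than WT in each. CSD2 had 67.9, 43.5 and 50.6 CPM in GRF1_OE and 35.6, 24.6 and 26.6 CPM in GRF3_OE, and its log2 changes against WT were 2.48 in the libraries labelled grf123, 0.89 (SE 0.22) in GRF1_OE and -0.0042 (SE 0.23) in GRF3_OE. CSD1 had log2 changes of 1.9, 1.34 and 0.28 in the same order. PHO2, by contrast, had log2 changes of 0.78 in the libraries labelled grf123, -0.01 (SE 0.10) in GRF1_OE and 0.06 (SE 0.10) in GRF3_OE.

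IPS1 had log2 changes of -1.72 in the libraries labelled grf123, 0.59 (SE 0.30) in GRF1_OE and 1.65 (SE 0.27) in GRF3_OE, where it was called higher (edgeR adjusted p = 0.000675). EXT12 had -3.75, -2.43 and -1.54 in the same order, lower than WT and called in each. MYB29 had 1.13 in the libraries labelled grf123, 0.31 (SE 0.19) in GRF1_OE and -0.20 (SE 0.20) in GRF3_OE, called in the libraries labelled grf123 and in neither overexpressor. PAL4 had 1.2 in the libraries labelled grf123, -0.91 in GRF1_OE (edgeR adjusted p = 0.000224) and -0.89 in GRF3_OE (edgeR adjusted p = 0.000812), called in opposite directions. GASA4 had 1.13, 1.47 and 0.89, higher than WT and called in each. Differences between the mutant-labelled and overexpressing lines were not tested here.

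**Figure D5:**
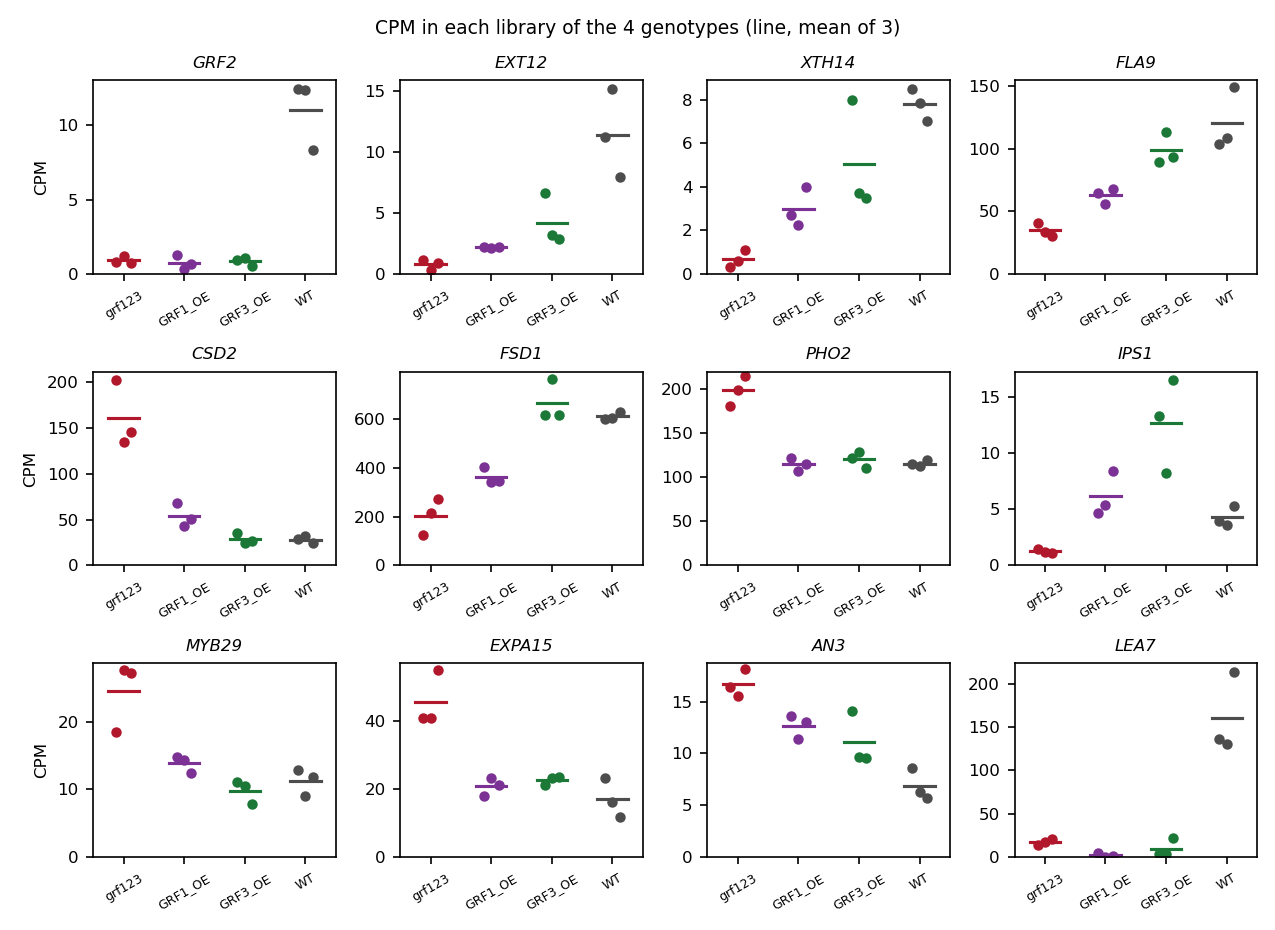
CPM of each library in the libraries labelled grf123, GRF1_OE, GRF3_OE and WT for 12 genes on linear axes that start at 0; points are libraries and lines are group means. GRF2 is low in every line but WT, and PHO2 is above WT in the libraries labelled grf123 while its overexpressor values lie near WT.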

How the data were processed

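The deposited files hold raw counts of reads per locus, 1 file per library. Trimmomatic, TopHat2 2.0.14 and HTSeq were used with the TAIR10 build, per the submitters' processing notes, and messenger RNA was isolated with magnetic beads, per the labels' protocols. The strand setting of the counting is not given in the sources used here. Overlapping and antisense genes are therefore uncertain, as are near-identical copies. Rows that name no gene, 67.8 to 76.9% of the counts of the 6 libraries compared, entered neither library sizes nor tests.

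All 12 libraries entered a single edgeR 4.0.16 fit in R 4.3.3 (TMM factors, filterByExpr with minimum count 10 and minimum total 15, robust quasi-likelihood F test), with genotype as the only term. It left 8 residual degrees of freedom. The standard error is the absolute log2 change over the square root of F. No permutation test was run, since the smallest exact p for 3 against 3 libraries is 0.1. Alternatives were RLE and upper-quartile factors, other count filters, DESeq2 1.42.0, a fit of the 6 libraries, a replicate block, trends with length and GC removed, ribosomal RNA loci removed, and leaving out each library. The procedure was tested on simulated data. There it made 180 calls over 17487 tested genes, of which 19 were false and 0 had the wrong sign. That share of false calls is above the level the adjusted p threshold sets. The share recovered was 46% at 1.5-fold, 78% at 2-fold, 100% at 4-fold and 98% at 8-fold. These shares are not split by level, so they do not show the recovery of genes with few counts. The simulation gives no result on a library that stands apart, as WT replicate 3 did. The 41 gene lists hold 910 loci. Members and lists were chosen with earlier results of these data known. Named genes are the GRF and GIF genes, the largest and the most significant calls, up to 4 calls per list and calls within 100 kb of GRF1, GRF2 or GRF3. The largest calls were taken only among genes above a minimum level whose groups did not overlap. Their non-overlap was thus fixed by that choice. Other named genes were chosen after their values were seen, and some genes taken by the rule are not described. Sequences and motifs come from the RefSeq TAIR10.1 genome and annotation. Depth limits low genes, and counts near 0 cover counting error only.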

Additional observations from a re-analysis of the deposited data

How the results depend on the processing

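The count of called genes was 875 (378 higher and 497 lower). It was 535 (225 higher and 310 lower) in a fit of the 6 libraries alone, which has fewer samples. Leaving out single libraries gave 377 to 1026 calls, 153 to 482 higher and 224 to 624 lower, and 168 to 400 calls of at least 2-fold change. DESeq2 called 825 genes (286 higher and 539 lower), and the other settings kept each count within 1.5 times. GRF3 lay between -0.15 and 0.24 (log2) without single libraries, with the sign reversed without WT replicate 1, and GRF9 between -0.13 and 0.66, with the sign reversed without WT replicate 2, and neither was called in any of these fits. Of the 159 named genes that were called, 72 stayed called in all 16 settings and 131 stayed called without WT replicate 3. With the replicate number as a block 771 genes were called (299 higher and 472 lower), 700 of them shared with the fit without it. Deviations of same-numbered libraries from their group means correlated at -0.063, 0.028 and -0.131. With 3 libraries per group these values cannot show whether the numbers pair the libraries. Depth, lowest in WT replicate 3, limits what can be said of genes with few counts.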
